A study of Mus musculus with 4 samples.

Results

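The RNA interference and microRNA machinery was followed through 10 genes: the nuclear processing factors Drosha and Dgcr8, the cytoplasmic nuclease Dicer1, the Argonautes Ago1, Ago2, Ago3 and Ago4, and the GW182 proteins Tnrc6a, Tnrc6b and Tnrc6c. Members were taken by gene symbol from tables of 47445 gene identifiers, and each had 1 row in every table. RNA was profiled in late 2-cell mouse embryos of the strain C57BL/6N, in 2 libraries made after injection of Uqcc3 siRNA, directed at an assembly factor of mitochondrial complex III, and in 2 control libraries. Injections were made at 8 hpi, as the labels write it, with 5 µM siRNA, and the females were 8 weeks old. By the protocol a negative-control siRNA went into the controls under matched conditions, while their treatment label reads "none", so it is unclear whether the controls carried an siRNA at all. Only injected embryos of normal morphology were harvested, and how many embryos made up a library was not stated. The labels do not tie replicates to separate mice or days of injection, and p-values therefore cover just the library-to-library spread, possibly technical.

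In animals, Drosha with its RNA-binding partner Dgcr8 cuts microRNA precursors out of primary transcripts in the nucleus, and Dicer1 trims them, or long double-stranded RNA, to small duplexes in the cytoplasm. An Argonaute keeps a single strand of the duplex as guide, and GW182 proteins bound to the Argonaute recruit the deadenylases that shorten the poly(A) tail of the target. Ago2 is the main Argonaute able to cut its target, and the knockdown by an injected siRNA relies on that cut without any need of Drosha or Dgcr8. Mouse oocytes make endogenous siRNAs with Dicer1, and microRNA activity is known to be low in them.

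The knockdown was checked first. Uqcc3 (ENSMUSG00000071654.5) stood at 23.7 and 19.8 FPKM (fragments per kilobase of transcript and per unit of library size) in Uqcc3 siRNA replicates 1 and 2, and at 147 and 211 FPKM in control replicates 1 and 2. The siRNA mean was 12.1% of the control mean, and the log2 difference of -2.97 did not pass over all genes (SE 0.63; limma adjusted p = 0.745). Depth, estimated from genes with a single annotated transcript, was about 11200000 and 11500000 fragments in the siRNA libraries and 16100000 and 18100000 in the controls. Replicate 2 of the siRNA group stood apart from the other libraries. Its log2 values correlated with theirs across genes, which are not independent replicates, at 0.624 to 0.651, against 0.867 to 0.875 among the other 3 libraries. It had 9771 genes at 1 FPKM or more, against 11818 to 12202, and 3.41% of its summed FPKM was mitochondrial mRNA, against 9.98% to 17.9%. Rn18s-rs5, which carries ribosomal RNA sequence, reached 14506 FPKM there, against 183 to 1023 FPKM in the other 3 libraries. Short genes were low in it: tested genes under 1000 bases had a median log2 difference from the controls of -1.47 there and -0.31 in siRNA replicate 1. Markers of late 2-cell embryos summed to 624 and 374 FPKM in the siRNA libraries and 673 and 1120 FPKM in the controls. Their median log2 differences from the control mean were -0.58 and -2.03 in siRNA replicates 1 and 2. In siRNA replicate 2, Zscan4c, Zscan4d and Zscan4f stood at 1.68, 6.71 and 0.140 FPKM. Gm8300, Tcstv1 and Tcstv3 stood at 71.9, 79.2 and 153 FPKM there. Maternal oocyte markers summed to 8640 and 3385 FPKM with siRNA and 10364 and 12337 FPKM in the controls. Dppa3 alone held 8371 and 3004 FPKM of this with siRNA and 10131 and 12086 FPKM in the controls. The median log2 difference of the maternal markers was 0.15. Of 10 markers of cumulus and granulosa cells, which summed to 8.63 to 22.5 FPKM, Amh and Fshr were at 0 in all libraries, while Amhr2 stood at 5.16 to 7.58 FPKM and Tnfaip6 reached 14.1 FPKM in control replicate 2. Of 9 sperm markers, which summed to 22.6 to 47.1 FPKM, Akap4 was at 0 in all libraries and Ldhc stood at 15.9 to 22.4 FPKM. Others varied between libraries: Prm2 stood at 12.3 and 0 FPKM with siRNA and 5.34 and 0.108 FPKM in the controls. Pgk2 stood at 8.19 and 0.0542 FPKM with siRNA and 3.42 and 17.2 FPKM in the controls. Of 8 blood markers, which summed to 9.17 to 34.5 FPKM, Hbb-bs and Alas2 were at 0 in all libraries, and Hba-a1 stood at 9.75 and 0 FPKM with siRNA and 9.26 and 18.8 FPKM in the controls. The part of such cells in the members' values was not tested.

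The sequence shown here matters for reading Ago3, whose values were the highest of the family. The shortest of its 6 annotated transcripts (GENCODE M21, GRCm38, the genome of mm10) has 433 bases in 5 exons at chr4:126345577-126350902 on the minus strand, all of them annotated as coding. It is drawn from exons 15 to 19 of the longest transcript, which has 15595 bases. Printed are the last 3 exons, 250 bases at chr4:126345577-126347869, where the transcript departs from the longest one. Capitals mark the fourth exon, which lacks the first 58 bases of exon 18, and the 6 bases after it are all of the last exon, which ends 12845 bases before the end of exon 19.
Ago3 shortest transcript, exons 3 to 5: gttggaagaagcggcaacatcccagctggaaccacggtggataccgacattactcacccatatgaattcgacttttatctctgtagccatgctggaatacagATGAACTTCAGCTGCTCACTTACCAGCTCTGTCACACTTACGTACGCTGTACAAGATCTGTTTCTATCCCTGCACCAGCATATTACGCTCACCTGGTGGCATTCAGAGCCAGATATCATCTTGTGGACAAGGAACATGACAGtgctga

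A second pair of sequences belongs to Dgcr8, whose transcript carries a microRNA hairpin, Mir1306, of the kind that Drosha and Dgcr8 cut. Mature sequences are from RefSeq (GRCm38.p6, minus strand), at chr16:18284288-18284310 and chr16:18284248-18284268, with the seed, bases 2 to 8, in capitals.
mmu-miR-1306-5p: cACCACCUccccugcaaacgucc
mmu-miR-1306-3p: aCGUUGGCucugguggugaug
The row of Mir1306 was listed at 0 FPKM in all 4 libraries, which were primed on poly(A) tails, so mature microRNAs were not measured.

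Drosha, the nuclear RNase III enzyme (ENSMUSG00000022191.15, chromosome 15, 12824815 to 12935291, plus strand), stood at 5.52 and 25.9 FPKM in siRNA replicates 1 and 2, against 6.30 and 6.18 FPKM in control replicates 1 and 2. In FPKM the controls differed 1.02-fold, siRNA replicate 1 lay just under them, and siRNA replicate 2 lay far above, so the groups overlapped. Its log2 difference was 0.87 (SE 1.01; limma adjusted p = 0.841). In whole embryos, here and for all genes below, fewer cells with a transcript and less of it per cell cannot be told apart.

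Dgcr8, the RNA-binding partner of Drosha (ENSMUSG00000022718.11, chromosome 16, 18253948 to 18289246, minus strand), stood at 4.57 and 30.1 FPKM in the siRNA libraries, against 12.6 and 7.38 FPKM in the controls. Both controls lay between the siRNA libraries. The log2 difference was 0.30 (SE 1.05; limma adjusted p = 0.956). Drosha and Dgcr8 were thus each lowest in siRNA replicate 1 and highest in siRNA replicate 2. Within a library, where scaling between libraries does not enter, the log2 ratio of Dgcr8 to Drosha was -0.27 and 0.22 with siRNA and 1.00 and 0.26 in the controls (exact permutation test, two-sided, p = 0.333, the smallest that 2 libraries against 2 allow). Trmt2a overlaps the end of Dgcr8 by 825 bases on the other strand, at 0.359 and 3.64 FPKM in the siRNA libraries and 0.481 and 0.369 FPKM in the controls. Use of strand in the counting is not stated, so reads there cannot be told apart. On the same strand Gm49776, annotated as protein-coding, overlaps the span of Dgcr8 by 4374 bases and has no listed value.

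Dicer1, the nuclease that makes both microRNAs and siRNAs (ENSMUSG00000041415.9, chromosome 12, 104687742 to 104751952, minus strand), stood at 8.75 and 20.1 FPKM with siRNA, against 11.9 and 8.09 FPKM in the controls. Replicate 1 of the siRNA group lay within the range of the controls and replicate 2 above it. The log2 difference was 0.40 (SE 0.87; limma adjusted p = 0.924). The log2 ratio of Dicer1 to Drosha was 0.66 and -0.37 in siRNA replicates 1 and 2, against 0.92 and 0.39 in the controls, so Drosha exceeded Dicer1 in siRNA replicate 2 and in no other library (exact permutation test, two-sided, p = 0.667).

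Of the 2 tested Argonautes Ago3 (ENSMUSG00000028842.15, chromosome 4, 126331704 to 126429556, minus strand), which binds guides like the others, had the larger difference. It stood at 57.1 and 9.75 FPKM in the siRNA libraries, against 117 and 110.0 FPKM in the controls. Each siRNA library was lower than each control, and the authors' bounds, 49.9 to 64.4 and 8.08 to 11.4 FPKM with siRNA, did not reach those of the controls, 109 to 125 and 103 to 118 FPKM. The mean was 33.4 ± 33.5 FPKM with siRNA and 114 ± 4.93 FPKM in controls (SD, n = 2 each), and the siRNA mean was 29.5% of the control mean. Its log2 difference was -2.20 (SE 0.88; limma adjusted p = 0.745), which did not pass the threshold of 0.05. The siRNA replicates differed from each other 5.86-fold. Without siRNA replicate 2 the log2 difference was -0.98 (limma adjusted p = 0.614), and without siRNA replicate 1 it was -3.41 (limma adjusted p = 0.0220), in a fit where 1477 of 12390 genes passed and the lone siRNA library was assumed to vary like the controls.

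Ago2, the Argonaute that cuts its target (ENSMUSG00000036698.10, chromosome 15, 73095844 to 73184935, minus strand), was listed far lower than Ago3. It stood at 0.650 and 3.08 FPKM with siRNA, against 1.14 and 0.559 FPKM in the controls. Replicate 1 of the siRNA group lay between the controls and replicate 2 above them. The log2 difference was 0.51 (SE 0.81; limma adjusted p = 0.892). The neighbour Chrac1 overlaps the end of Ago2 by 1711 bases on the other strand, at 21.3 and 5.86 FPKM in the siRNA libraries and 41.4 and 37.2 FPKM in the controls, so reads of that stretch cannot be assigned to either gene without strand.

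Ago1 and Ago4 lie beside Ago3 on the same strand of chromosome 4, separated by gaps of 5455 bases between Ago3 and Ago1 and 20957 bases between Ago1 and Ago4. Ago1 (ENSMUSG00000041530.16, 126435012 to 126468583) was listed at 0.0111 and 0.0517 FPKM with siRNA, against 0.212 and 1.35 FPKM in the controls. Ago4 (ENSMUSG00000042500.11, 126489541 to 126533472) was listed at 0.334 and 0.0123 FPKM with siRNA and at 0 in both controls. Both missed the filter, 1 FPKM or more in 2 or more libraries, and were not tested. The 3 neighbours thus differed widely in level, with Ago3 above 90.1% and 59.6% of tested genes in siRNA replicates 1 and 2 and above 92.9% and 92.5% in the controls. Ago1 exceeded 1 FPKM in control replicate 2 alone and Ago4 in no library.

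**Figure D1:**
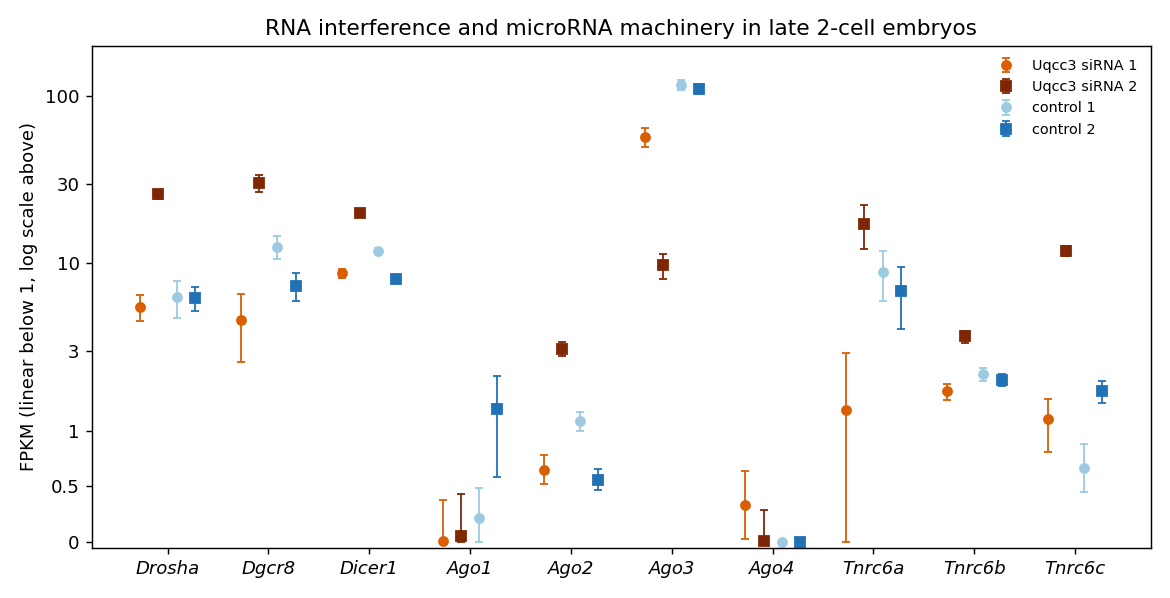
FPKM of the 10 genes (y axis, linear below 1 and logarithmic above) in 2 Uqcc3 siRNA libraries and 2 control libraries, with vertical lines for the authors' lower and upper bounds. Ago3 stands at 57.1 and 9.75 FPKM with siRNA under 117 and 110.0 FPKM in controls, while siRNA replicate 2 is highest in the other 7 tested genes.

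The bounds also tell how many fragments stand behind these values. If a bound lies 2 counting errors from its value, it gives a number of fragments, and with the depth of the library a length of transcript. Uncertainty in dividing reads among transcripts also widens the bounds, which lowers both figures, and the depth is itself an estimate, so both are approximate. For Ago2 the bounds stood for 105 and 425 fragments with siRNA and 244 and 143 in the controls. The implied length was 14356 and 11992 bases with siRNA and 13250 and 14138 bases in the controls, 86.9% to 104% of the longest annotated transcript of 13800 bases. Dicer1 (10694 to 10989 bases, above its longest annotated transcript of 9851 bases) and Tnrc6b (13915 to 16508 bases, longest 17332 bases) were likewise near that length in all 4 libraries.

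For Ago3 the bounds stood for 249 and 137 fragments with siRNA and 807 and 853 in the controls. The implied length was 389 and 1219 bases with siRNA and 429 and 428 bases in the controls, close to the transcript of 433 bases printed above in 3 of the 4 libraries and 2.50% to 7.82% of the longest transcript. Of the 10694 to 12086 tested genes per library with a usable bound and a known length, 10.4% to 11.6% had an implied length under 10% of their longest transcript. Ago3 had 87.9 and 3.17 times the FPKM of Ago2 in the siRNA libraries and 102 and 197 times in the controls. In implied fragments the ratio of Ago3 to Ago2 was 2.38 and 0.322 in the siRNA libraries and 3.31 and 5.96 in the controls. The authors' annotation release was not stated, and the share of each transcript was not analysed here. Tnrc6a (185 to 261 bases, longest 8183 bases) and Dgcr8 (410 to 855 bases, longest 4320 bases) had low implied lengths as well. Those of Tnrc6a lay under its shortest annotated transcript, 358 bases, in all 4 libraries. An implied length therefore need not be that of an annotated transcript, and a match to one does not identify it. Tnrc6a rested on 2.74 and 46.5 implied fragments with siRNA and 37.4 and 24.9 in the controls, the fewest among the tested members in each library.

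**Figure D2:**
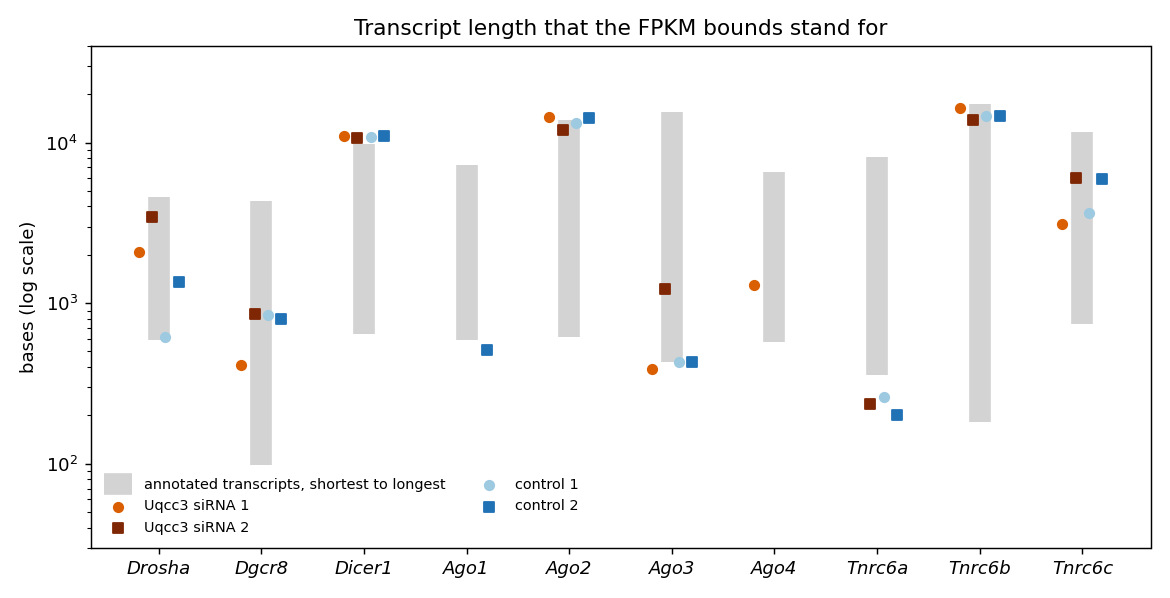
Transcript length (y axis, bases, log scale) that each library's FPKM bounds stand for at its depth, for the 10 genes, where at least 3 fragments were implied. Grey bars run from the shortest to the longest annotated transcript, and Tnrc6a lies under its bar. Ago2, Dicer1 and Tnrc6b lie near their longest transcript, and Ago3 lies at 389, 429 and 428 bases in siRNA replicate 1 and the controls, near its shortest of 433 bases, and at 1219 bases in siRNA replicate 2.

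Shares within the family do not depend on scaling between libraries. Ago2 made up 1.12% and 23.9% of summed Argonaute FPKM in siRNA replicates 1 and 2, against 0.965% and 0.500% in the controls. Both siRNA libraries lay above both controls, but replicate 1 lay only just above (exact permutation test, two-sided, p = 0.333, the smallest possible here). The difference of the means was 11.8 percentage points, and it was 0.386 without siRNA replicate 2. Over implied fragments, an alternative chosen after seeing the data, Ago2 made up 29.2% and 75.6% with siRNA, against 23.1% and 14.2% in the controls (exact permutation test, two-sided, p = 0.333).

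GW182 proteins carry the signal from Argonaute to the deadenylases. Tnrc6a (ENSMUSG00000052707.8, chromosome 7, 123123885 to 123195296, plus strand) stood at 1.32 and 17.3 FPKM with siRNA, against 8.92 and 6.80 FPKM in the controls. The siRNA replicates differed 13.1-fold and enclosed both controls. The log2 difference was -0.43 (SE 1.19; limma adjusted p = 0.942). The noncoding Gm45846 overlaps the span of Tnrc6a by 45794 bases on the same strand and has no listed value.

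Tnrc6b (ENSMUSG00000047888.9, chromosome 15, 80711313 to 80941085, plus strand) was the steadiest of the tested members between the siRNA replicates, with 1.72 and 3.66 FPKM, against 2.17 and 2.02 FPKM in the controls. The siRNA libraries lay on either side of the controls here too. The log2 difference was 0.20 (SE 0.90; limma adjusted p = 0.970).

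Tnrc6c (ENSMUSG00000025571.13, chromosome 11, 117654289 to 117763439, plus strand) stood at 1.18 and 11.9 FPKM with siRNA, against 0.666 and 1.72 FPKM in the controls. Replicate 1 of the siRNA group lay between the controls, and replicate 2 was far above all others. The log2 difference of 1.31 was the largest positive one among the tested members (SE 1.11; limma adjusted p = 0.799).

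Shares within the GW182 family were compared in the same way. Tnrc6c made up 28.0% and 36.2% of summed Tnrc6 FPKM with siRNA, against 5.67% and 16.3% in the controls. Tnrc6a made up 31.3% and 52.6% with siRNA, against 75.9% and 64.5% in the controls, and Tnrc6b 40.7% and 11.2% against 18.5% and 19.2%. The share of Tnrc6c was higher in each siRNA library than in each control, and that of Tnrc6a was lower in each (exact permutation test, two-sided, p = 0.333 for each, the smallest possible here). For Tnrc6b the siRNA libraries enclosed the controls (exact permutation test, two-sided, p = 1). Tnrc6a, part of every denominator, stood in siRNA replicate 1 for 2.74 implied fragments with a lower bound of 0. Its implied fragments were the fewest of the family in every library, with 46.5 in siRNA replicate 2 and 37.4 and 24.9 in the controls. Tnrc6b stood for 317 and 586 with siRNA and 513 and 539 in the controls, and Tnrc6c for 41.0 and 821 against 38.9 and 184. The shares above are of FPKM alone. Over these implied fragments the share of Tnrc6c in siRNA replicate 1 lies between the controls, so its groups do not separate. That of Tnrc6a stays lower in each siRNA library than in each control, but only just in replicate 2. No test was run on shares of implied fragments in this family.

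**Figure D3:**
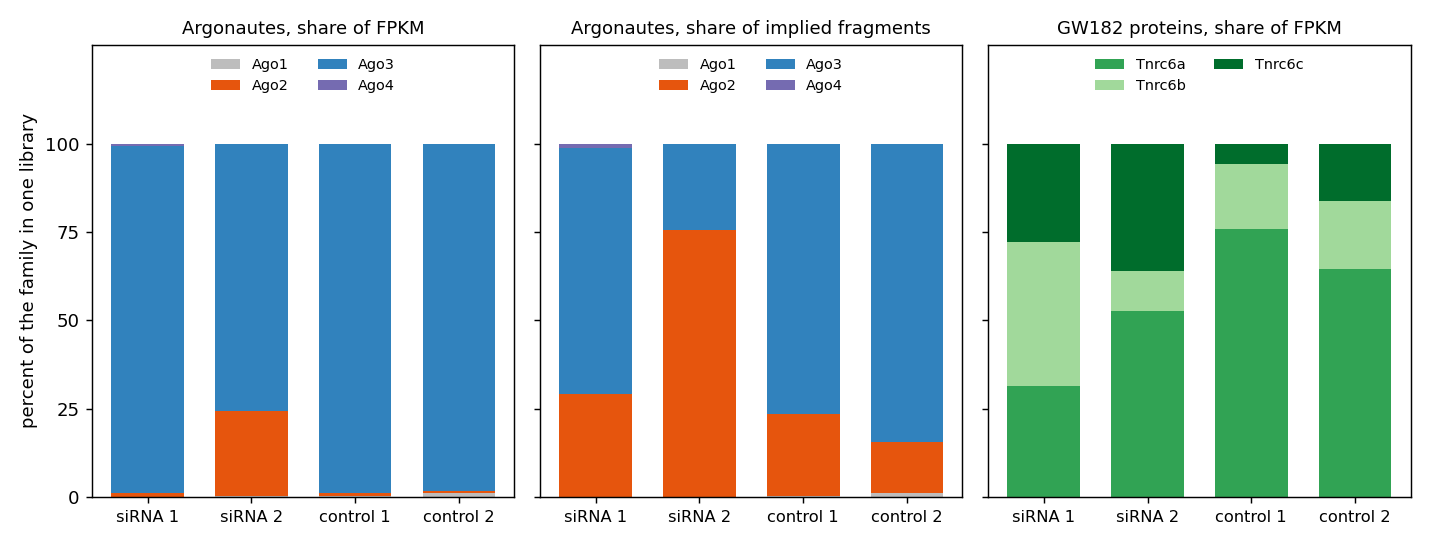
Share (y axis, percent) of each member in its family, for 2 Uqcc3 siRNA and 2 control libraries: Argonautes by FPKM, Argonautes by implied fragments, and GW182 proteins by FPKM. Ago3 leads by FPKM in every library, and Ago2 reaches 75.6% of implied fragments in siRNA replicate 2. Tnrc6c is at 28.0% and 36.2% of FPKM with siRNA against 5.67% and 16.3% in controls, a separation not seen over implied fragments.

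Per length, the order of levels in the siRNA libraries by their means was Ago3, Dgcr8, Drosha, Dicer1, Tnrc6a, Tnrc6c, Tnrc6b, Ago2, Ago4 and Ago1, and neighbours overlapped at every step except that from Ago2 to Ago4. In the controls the order was Ago3 (mean 114 FPKM), Dicer1 (10.0), Dgcr8 (9.98), Tnrc6a (7.86), Drosha (6.24), Tnrc6b (2.10), Tnrc6c (1.19), Ago2 (0.851), Ago1 (0.782) and Ago4, listed at 0. The control libraries of neighbours did not overlap between Ago3 and Dicer1, between Tnrc6a and Drosha, between Drosha and Tnrc6b, between Tnrc6b and Tnrc6c, and between Ago1 and Ago4.

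Of the 10 members 8 were tested, and 0 passed an adjusted p of 0.05 in limma, where 0% of 12390 genes did. At an unadjusted p under 0.05 in limma there was 1 member, Ago3, and 5.96% of all tested genes, of which 5.21% lower and 0.743% higher with siRNA. Ago3 was thus 1 member among the lower, and no member was among the higher. The siRNA libraries were both lower than the controls in 1 of the 8, again Ago3, against 30.0% of tested genes, and above both controls in 0 of the 8, against 8.60%. After median-of-ratios scaling, which moved the median of all genes from -0.39 to -0.06, Drosha, Dicer1 and Tnrc6b lay above both controls in both siRNA libraries, 3 of the 8 members against 16.8% of tested genes at that scaling. The median log2 difference of the 8 members was 0.35, against -0.39 over all tested genes. It was -0.02 with the trend on transcript length removed, against -0.40 over all genes, and 0.63 to 0.77 under the other 3 scalings.

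The 2 siRNA libraries differed in this. Replicate 1 had a median difference from the control mean of -0.17 over the 8 members, against -0.30 over all tested genes, and replicate 2 had 1.11, against -0.57. In 7 of the 8 members siRNA replicate 2 was above the other 3 libraries, the case in 30.5% of all tested genes. In 4 of the 8, Drosha, Dgcr8, Tnrc6a and Tnrc6b, siRNA replicate 1 was below the other 3, the case in 25.7% of all tested genes. Both held together in these 4, the case in 13.3% of all tested genes. For Drosha, Dgcr8 and Tnrc6b, however, the authors' bounds of siRNA replicate 1 overlapped those of a control or of both controls. For Tnrc6a they did not. These counts of order were chosen after the values were seen. The median gap between the siRNA replicates was 2.24 on the log2 scale over the members and 1.28 over all tested genes, while that between the controls was 0.40 and 0.60.

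Transcript length moved with this pattern. The longest transcripts of the tested members run from 4320 to 17332 bases, against a median of 2681 bases over tested genes. Tested genes of at least 4320 bases had median differences of -0.25 and 0.26 in siRNA replicates 1 and 2, and the second of these libraries was highest in 45.0% of them, against 26.0% of shorter genes. The part of length in the members' values was not tested beyond removing its trend, which gave log2 differences of 0.57 for Drosha, 0.02 for Dgcr8, -0.040 for Dicer1, 0.0053 for Ago2, -2.71 for Ago3, -0.84 for Tnrc6a, -0.33 for Tnrc6b and 0.84 for Tnrc6c. The trend was on the longest annotated transcript, so Ago3 was treated as 15595 bases long, though its bounds implied 389 to 1219 bases. Tnrc6a and Dgcr8 were likewise treated as longer than implied. Tested genes under 1000 bases had a median log2 difference of -0.88, and a correction at the implied lengths was not tested.

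**Figure D4:**
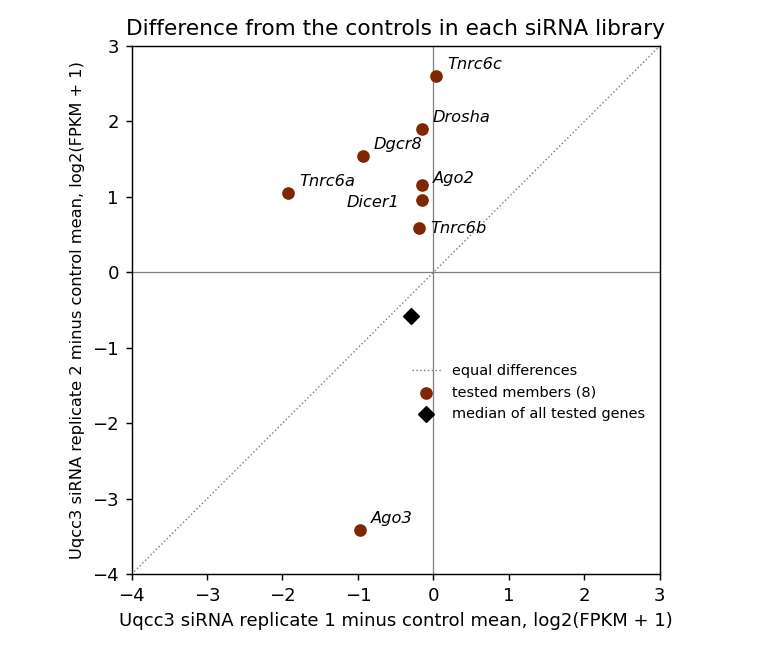
Difference from the control mean on the log2(FPKM + 1) scale in Uqcc3 siRNA replicate 1 (x axis) and replicate 2 (y axis) for the 8 tested members. The dotted line marks equal differences and the diamond the median of all tested genes. Only Ago3 lies below 0 in both, at -0.98 and -3.41, and 7 members lie above 0 in replicate 2.

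Profiles like those of Drosha, Dicer1 and Ago2 were sought over the 4 libraries as the smallest root-mean-square distance of centred log2 values, among 7455 genes with a mean of at least 5 FPKM. Nearest to Drosha were Ubr3, Dcun1d2 and Rad21, at distances of 0.029, 0.036 and 0.060. Ubr3 stood at 4.96 and 24.2 FPKM with siRNA, against 5.46 and 5.53 FPKM in the controls. Birc3, Adam17 and Eif4g2 came nearest to Dicer1, at 0.019, 0.023 and 0.024, and Fkbp5, Taok1 and Gm13416 to Ago2, at 0.031, 0.034 and 0.041. Such profiles were common: 226, 280 and 266 genes lay within 0.25 of Drosha, Dicer1 and Ago2.

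Genes that work with the members were read from 4 lists, and 0 of their 80 tested genes passed in limma in either direction. For partners of microRNA processing and export, 17 of 19 were tested, 1 lay below and 1 above both controls in both siRNA libraries, and the median log2 difference was 0.29. Over all tested genes 30.0% lay below and 8.60% above. Its most abundant genes were Hnrnpa2b1, an RNA-binding protein, at 45.0 and 310.3 FPKM with siRNA against 85.8 and 43.9 FPKM in the controls, the helicase Ddx5 with a log2 difference of -0.59, the export GTPase Ran with -1.26, and the cap-binding protein Ncbp1 with 1.01. In siRNA replicate 2, 13 of the 17 were highest, against 30.5% of all tested genes.

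For Argonaute loading and cofactors, 21 of 24 were tested, 6 lay below and 2 above (30.0% and 8.60% of all tested genes), and the median was -0.31. Of the 21, 9 were highest in siRNA replicate 2, against 30.5% of all tested genes. The chaperone Hsp90aa1 stood at 231 and 482 FPKM with siRNA, against 446 and 265 FPKM in the controls. Ptges3, its cochaperone, had a log2 difference of -0.40, Dnaja2 0.24 and Hsp90ab1 0.75.

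For deadenylation and decapping factors that GW182 proteins act through, 27 of 31 were tested, and the median was 0.17. Of these 7 lay below and 4 above, against 30.0% and 8.60% of all tested genes. Highest in siRNA replicate 2 were 15 of the 27, against 30.5% of all tested genes. Cnot7, a deadenylase of the Ccr4-Not complex, stood at 330.0 and 123 FPKM with siRNA, against 325 and 458 FPKM in the controls, and thus on either side of the lower control. Pan3, a subunit of the other deadenylase complex, stood at 202 and 177 FPKM with siRNA, against 289 and 489 FPKM in the controls (log2 difference -0.99; limma adjusted p = 0.747). The translational regulator Lsm14a had a log2 difference of 0.82 and the poly(A)-binding protein Pabpc1 one of 0.39.

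For the PIWI and piRNA pathway, which serves germ cells, 15 of 20 were tested, and the median was -0.60. Of these 7 lay below and 1 above, against 30.0% and 8.60% of all tested genes. Gtsf1, a PIWI cofactor, stood at 42.2 and 8.70 FPKM with siRNA, against 81.4 and 66.8 FPKM in the controls (log2 difference -1.87; limma adjusted p = 0.745). Tdrkh, Fkbp6 and Mael had log2 differences of -0.59, -1.51 and -0.60. In this list 1 of the 15 genes was highest in siRNA replicate 2, against 30.5% of all tested genes. The medians of siRNA replicates 1 and 2 were -0.43 and -0.65.

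**Figure D5:**
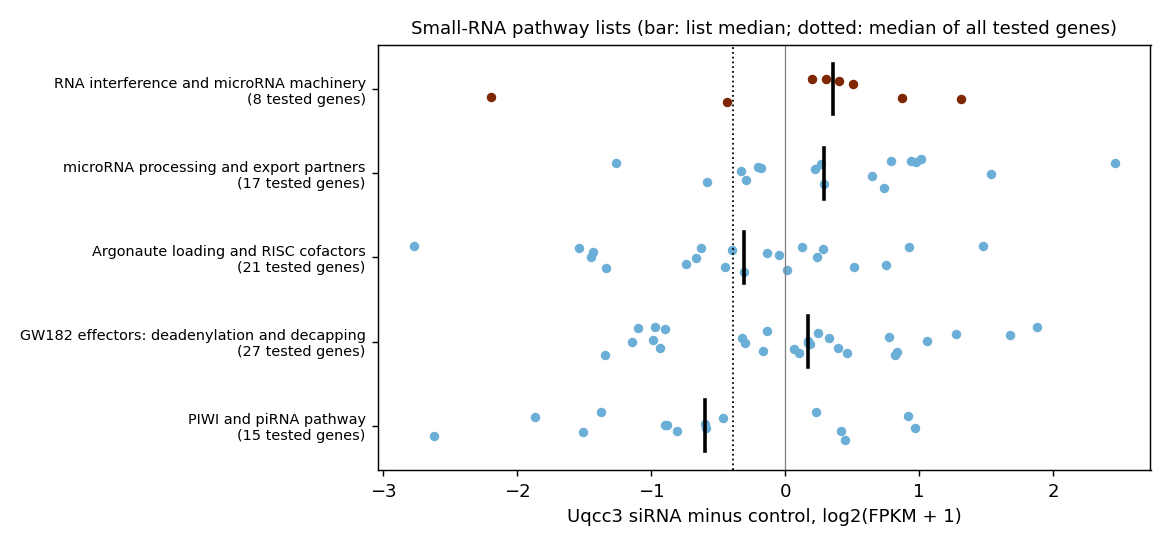
Log2 difference between Uqcc3 siRNA and control (x axis) of each tested gene in the member list and in 4 lists of partner genes. Black bars mark list medians, 0.35 for the members, and the dotted line the median of all tested genes, -0.39. Genes of every list lie on both sides of 0.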

How the data were processed

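The authors deposited 1 table of FPKM values with lower and upper bounds per library, per the file headers. Named in the submitters' processing notes are mm10, Cufflinks and Cuffdiff 2.2.1, SAMtools 1.7, STAR 2.7.3a and Trim Galore 0.6.5. Per the labels' protocols, cDNA was primed with oligo(dT) and amplified. Rows of an identifier were summed, and 2 identifiers with a failed estimate were left out. The 12390 genes reaching 1 FPKM in 2 or more libraries were tested in R 4.3.3 with limma 3.58.1, its variance prior following abundance, on the log2(FPKM + 1) scale, two-sided, Benjamini-Hochberg adjusted over all genes. This scale understates differences of low genes. This procedure was tested on simulated data. Implied fragments are the squared ratio of FPKM to 0.5 of the gap between FPKM and its upper bound. They take that gap as counting error alone, although uncertainty in dividing reads among transcripts also widens it. PCR copies are not separate molecules, so implied fragments do not count molecules. GENCODE M21 gave gene models and matched 99.1% of identifiers. The text names all members, the 4 most abundant tested genes of each partner list, and the 3 genes nearest in profile to Ago2, Dicer1 and Drosha. Members and lists were chosen with earlier results of these data known. Replicate numbers follow accession order. Sample titles end differently in siRNA and control samples, and if that marks a batch, batch and group cannot be told apart. Alternatives were another pseudocount, other filters, other scalings, no trend, length correction, the bounds in place of FPKM and each library left out.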

Additional observations from a re-analysis of the deposited data

How the results depend on the processing

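Over 12 alternatives the count of members past the threshold in limma stayed at 0 except without Uqcc3 siRNA replicate 1, where Ago3 passed (range 0 to 1 with a library left out). Members below both controls numbered 1 in the main test, 2 with no filter on low values (20.1% of all genes at that setting) and 2 with the length trend removed (30.7%), and 1 to 5 with a library left out (5 without siRNA replicate 2, 48.3%). Members above both controls numbered 0 in the main test, 1 with no filter (8.83% of all genes), 1 after rescaling to TPM (13.2%), 2 with quantile normalization (16.5%) and 3 after scaling by median of ratios (16.8%), and 0 to 7 with a library left out (7 without siRNA replicate 1, 32.0%). The median of all genes was -0.06 after median-of-ratios scaling, -0.08 as TPM and 0.01 after quantile normalization. The members' median log2 difference ran from -0.17 without siRNA replicate 2 to 1.11 without siRNA replicate 1. With the length trend removed, Dicer1 and Tnrc6b reversed to -0.040 and -0.33. With a library left out, Ago2 ran from -0.15 to 1.16, Dicer1 from -0.15 to 0.96, Drosha from -0.15 to 1.89, Dgcr8 from -0.94 to 1.54, Tnrc6a from -1.92 to 1.05 and Tnrc6b from -0.19 to 0.59, each crossing 0. Ago3 was lower under every alternative run (-3.41 to -0.98, limma adjusted p = 0.0220 to 0.9998), and Tnrc6c was higher under each alternative in which it was tested (0.03 without siRNA replicate 2). The Ago2 share difference was 33.7 percentage points over implied fragments and 0.386 to 23.2 with a library left out. The cause was not tested. No paired analysis was possible because the labels carry no replicate numbers.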
